A study of Mus musculus with 6 samples.

Results

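Frame-keeping skipped exons were followed in the tibialis anterior (a shin muscle of mainly fast fibres) of control and Acin1 knockout mice. They are the exons in the deposited table of skipped-exon events whose length is at least 31 and under 300 bases and is divisible by 3. An event is one exon together with one pair of flanking exons, so an exon can stand in several events. Of 21006 events in the table, 8476 kept the frame by this rule, and they covered 7128 exons of 4347 genes. All mice carried HSA-Cre Tg/+, a Cre recombinase under the human skeletal actin promoter, and thus directed to skeletal muscle fibres. The 3 control libraries had the genotype Acin1 +/+ and the 3 knockout libraries Acin1 F/F, with floxed alleles on both chromosomes. Age and sex are not in the labels used here, and the labels do not say that the libraries came from separate animals, so the tests speak of the spread among libraries, which may be technical. Cells of the muscle that lack the transgene's activity keep Acin1, and in bulk tissue fewer cells of a type and less RNA per cell cannot be told apart.

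A skipped or cassette exon is either spliced into the mature RNA or left out together with the introns on both sides. When its length is a multiple of the codon length and it lies in coding sequence, the protein gains or loses an internal stretch while the reading frame downstream stays the same; other lengths shift the frame and often expose the RNA to nonsense-mediated decay. Skeletal muscle is known for many exons of this kind in genes of the sarcomere, the membrane system and the cytoskeleton. The product of Acin1, acinus, binds RNA in the nucleus, forms the ASAP complex with RNPS1 and SAP18 and joins the exon junction complex and the splicing machinery.

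The sequences of 12 coding exons whose use changed are shown because they are the stretches of coding sequence that the knockout libraries held less or more often. They were read from GENCODE M21 transcripts of GRCm38, in which an exon of the same gene, chromosome, strand, length and flanking intron lengths was found. Coordinates are those of the deposited table (GRCm39). Capitals mark the last 3 bases of the exon, which form the exonic side of the 5′ splice site. The first 5 were included less often in the knockout libraries and the other 7 more often. The 2 exons of Ank3 end at the same base and differ by 3 bases at the start.
Psmd14 (chr2:61591319-61591438, plus strand): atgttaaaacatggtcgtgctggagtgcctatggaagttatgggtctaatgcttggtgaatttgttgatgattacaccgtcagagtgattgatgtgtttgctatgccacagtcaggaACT
Trim54 (chr5:31291394-31291489, plus strand): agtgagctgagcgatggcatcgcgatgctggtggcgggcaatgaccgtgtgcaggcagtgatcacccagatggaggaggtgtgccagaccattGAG
Nos1 (chr5:118053612-118053713, plus strand): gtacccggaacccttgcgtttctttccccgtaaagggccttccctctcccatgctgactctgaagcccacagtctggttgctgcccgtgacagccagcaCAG
Ppfibp1 (chr6:146918359-146918391, plus strand): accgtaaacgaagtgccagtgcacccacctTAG
Sh3kbp1 (chrX:158744761-158744889, plus strand): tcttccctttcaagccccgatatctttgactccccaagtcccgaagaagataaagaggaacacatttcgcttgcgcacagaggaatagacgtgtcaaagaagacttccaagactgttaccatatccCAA
Card19 (chr13:49357405-49357464, minus strand): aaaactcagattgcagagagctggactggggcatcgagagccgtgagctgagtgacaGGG
Spag9 (chr11:94004089-94004127, plus strand): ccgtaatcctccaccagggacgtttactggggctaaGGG
Zmiz2 (chr11:6348262-6348339, plus strand): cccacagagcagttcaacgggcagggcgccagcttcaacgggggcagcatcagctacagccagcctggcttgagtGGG
Med24 (chr11:98608535-98608591, minus strand): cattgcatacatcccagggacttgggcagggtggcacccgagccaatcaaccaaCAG
Arfgap2 (chr2:91099415-91099456, plus strand): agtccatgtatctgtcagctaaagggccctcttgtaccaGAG
Ank3 longer form (chr10:69842630-69842683, plus strand): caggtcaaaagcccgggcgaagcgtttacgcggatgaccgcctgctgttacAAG
Ank3 shorter form (chr10:69842633-69842683, plus strand): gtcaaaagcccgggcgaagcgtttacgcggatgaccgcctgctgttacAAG

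Inclusion is the share of the form that holds the exon among the inclusion and skipping forms of an event. It was computed per library from the junction reads for inclusion and for skipping, each divided by the effective length in the table. Junction reads in the 8476 events numbered between 3139818 and 4696734 per library. An event was tested if its reads averaged 20 or more per library, no library had under 5 and the rarer form averaged 1 or more: 2044 events, or 1790 exons of 1296 genes, with a median of 87.4 reads per library and event. The table lists the 3 libraries of a group in an order that is not tied to their replicate labels, and they are called the first, the second and the third by that order. At an adjusted p under 0.05 (limma's moderated test on the log2 ratio of inclusion to skipping reads, Benjamini-Hochberg over all skipped-exon events), 136 frame-keeping events were called, 6.65% of those tested, against 5.47% of all 4750 skipped-exon events tested. Inclusion was higher in the knockout libraries in 57 events (2.79%, against 1.92% of all events) and lower in 79 (3.86%, against 3.56%). The calls covered 124 exons of 102 genes, 50 exons higher (1.98% of all exons tested were) and 75 lower (3.84% of all exons tested were), with a 93-base exon of Neb called both ways in events with different flanking exons. The difference between group means was at least 10 percentage points in 87 of the called events (all events called and at least that large made up 3.33% of those tested), and its median size was 14.4 points. In 499 tested events (24.4%) no control library overlapped a knockout library, as in 23.8% of all events tested. The number of frame-keeping events without overlap was thus near the background. Of the 136 called events 124 did not overlap, and of all 260 called skipped-exon events 246 did not. The calls rest on the same values, so this adds no support to them. The number of calls depends on how the spread is estimated: with one spread for all depths 14 events were called, 2 higher and 12 lower, and on the percent scale 10, 1 higher and 9 lower.

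**Figure D1:**
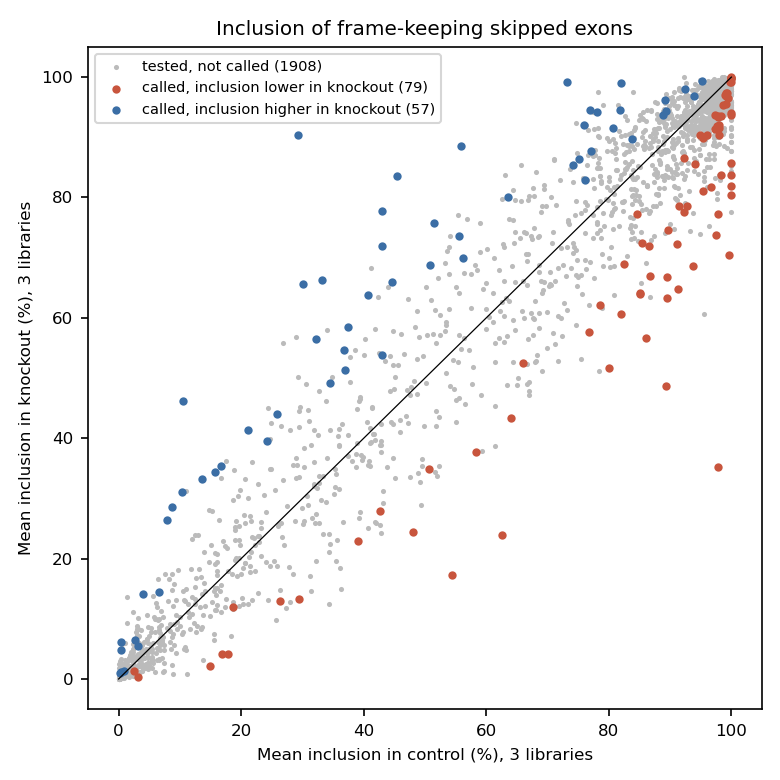
Mean inclusion (%) of 2044 tested frame-keeping events in the 3 knockout libraries (vertical axis) against the 3 control libraries (horizontal axis). Each point is 1 event and the line marks equal inclusion; the 79 called events with lower inclusion (red) lie mostly at the right edge, where control inclusion was high, and the 57 with higher inclusion (blue) mostly in the middle range.

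Most called exons that fell had a high inclusion in control muscle. In 46 of the 79 events with lower inclusion the control mean was 90% or more, and the median control inclusion was 93.7%. Of the 57 events with higher inclusion, 43 had a control mean between 10% and 90%, with a median of 43.0%. Among all 2044 tested frame-keeping events the median was 86.5%, and 923 lay at 90% or more. The starting level limits the direction in which inclusion can move, and its part in the direction of the calls was not tested.

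The 12 largest falls among called exons with no overlap between groups, each exon taken in its event with most reads, were in 12 genes: inclusion fell by 40.6 points in Ankrd24, at one end, and fell by 20.7 points in G3bp2, at the other. The clearest of them was the 120-base exon of Psmd14, which encodes the deubiquitinating subunit of the proteasome lid. Its inclusion was 100%, 100% and 98.8% in the control and 75.7%, 61.6% and 73.9% in the knockout libraries. The control libraries almost never skipped it, and every knockout library skipped it far more often. The mean fell from 99.6% ± 0.713 to 70.4% ± 7.66 (SD, n = 3), with a change of the log2 ratio of inclusion to skipping of -5.86 ± 0.62 (SE; adjusted p = 9.64e-12).

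Nos1 encodes neuronal nitric oxide synthase, which in muscle is tethered to the dystrophin complex at the membrane. Its 102-base exon encodes the 34-residue insert known as the mark of the muscle form of the enzyme. Inclusion of that exon was 53.9%, 84% and 50% in the control and 25.5%, 32.4% and 13.8% in the knockout libraries. It fell by 38.7 points, with a log2 change of -2.46 ± 0.56 (SE; adjusted p = 0.0019), on 225 junction reads in all 6 libraries together. In Ppfibp1, which encodes liprin-beta-1, a scaffold protein of cell edges and neuromuscular junctions, the 33-base exon was included at 56.8%, 57.1% and 49.5% in the control and 16.5%, 18.6% and 16.7% in the knockout libraries. The 3 values of each group lay close together and far from the other group, and the exon fell by 37.2 points (adjusted p = 0.0012). The 129-base exon of Sh3kbp1, an adaptor protein of receptor endocytosis, was included at 79.7%, 77% and 83.3% in the control and 47.6%, 55.7% and 51.7% in the knockout libraries. It fell by 28.3 points (adjusted p = 0.000501).

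The 147-base exon of Lrrc20, a gene for a leucine-rich repeat protein, was included at 91.7%, 89.5% and 87.1% in the control and 69.5%, 61.6% and 58.8% in the knockout libraries and fell by 26.1 points (adjusted p = 1.91e-09). In Lrrfip2, a gene that acts in Wnt and Toll-like receptor signalling, a 69-base exon was included at 99.1%, 93.5% and 100% in the control and 76.9%, 66.8% and 77.6% in the knockout libraries (adjusted p = 4.19e-07). It is annotated in noncoding transcripts, so its effect on a reading frame is unknown here. Zmynd11 encodes a reader of histone methylation. Its 162-base exon was included at 50.2%, 52.3% and 41.7% in the control and 26.3%, 26.9% and 20.2% in the knockout libraries and fell by 23.6 points (adjusted p = 0.000353). All of the falls from Psmd14 to Zmynd11 named so far were still called when any library was left out.

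The 5 other falls among the 12 largest were called with all 6 libraries and lost without 1 of them. Ankrd24, a gene for an ankyrin repeat protein, had a 168-base exon included at 68%, 100% and 100% in the control and 52.2%, 44% and 50% in the knockout libraries (adjusted p = 0.0131), and the call was lost without the third control library (adjusted p = 0.0679) or the second knockout library (0.0756). The 150-base exon of the noncoding gene 1110038B12Rik was included at 79.6%, 91.5% and 87.1% in the control and 64.2%, 60.5% and 45.2% in the knockout libraries (adjusted p = 0.011), and its call was lost without the third knockout library (adjusted p = 0.143). Both genes had control values that spread more than those of Psmd14.

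In Mapt, which encodes the microtubule-binding protein tau, a 198-base exon was included at 85.9%, 95.6% and 87.2% in the control and 81%, 64.5% and 54.7% in the knockout libraries (adjusted p = 0.027). The call for Mapt was lost without the second control library (adjusted p = 0.158), the second knockout library (0.118) or the third knockout library (0.204). The 63-base exon of the noncoding gene Epb41l4aos was included at 95.1%, 91.2% and 94.8% in the control and 57.9%, 82.2% and 65.9% in the knockout libraries (adjusted p = 0.0387), a call that was lost without the first control library (adjusted p = 0.0796), the third control library (0.0679), the first knockout library (0.21) or the third knockout library (0.179). G3bp2 encodes a core protein of stress granules. Its 99-base exon was included at 55.1%, 67.2% and 70% in the control and 43.9%, 48.9% and 37.4% in the knockout libraries (adjusted p = 0.0437), and the call was lost without the second control library (adjusted p = 0.113), the third control library (0.161), the first knockout library (0.0952), the second knockout library (0.0615) or the third knockout library (0.196). In all 3 genes each knockout library lay below each control library, which the choice of these exons required.

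Some exons with smaller falls had more reads and tighter values, and were chosen after their values were seen. Yipf7, a gene for a membrane protein of the early secretory pathway, had a 117-base exon included at 92.9%, 90.7% and 89.6% in the control and 75.6%, 70.9% and 70.2% in the knockout libraries (adjusted p = 8.35e-09). It fell in each knockout library below the lowest control library. Ybx1 encodes an RNA-binding protein with a cold-shock domain, and its 90-base exon was included at 98.3%, 98.4% and 98.4% in the control and 94.8%, 93.5% and 92.6% in the knockout libraries (adjusted p = 4.39e-07). Ndrg2, a gene regulated by N-Myc and strongly expressed in muscle, had a 42-base exon that was included at 99.2%, 99% and 99.2% in the control and 98.4%, 97.4% and 96% in the knockout libraries and fell by 1.84 points (adjusted p = 1.06e-05) on 35305 reads. The adjusted p of Ndrg2 was among the smallest although its change in percent was small. In contrast the 219-base exon of Nfu1, which encodes an iron-sulfur cluster protein of mitochondria, started low at 22.4%, 18.5% and 12.6% in the control and 3.32%, 4.54% and 4.38% in the knockout libraries (adjusted p = 9.52e-06).

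**Figure D2:**
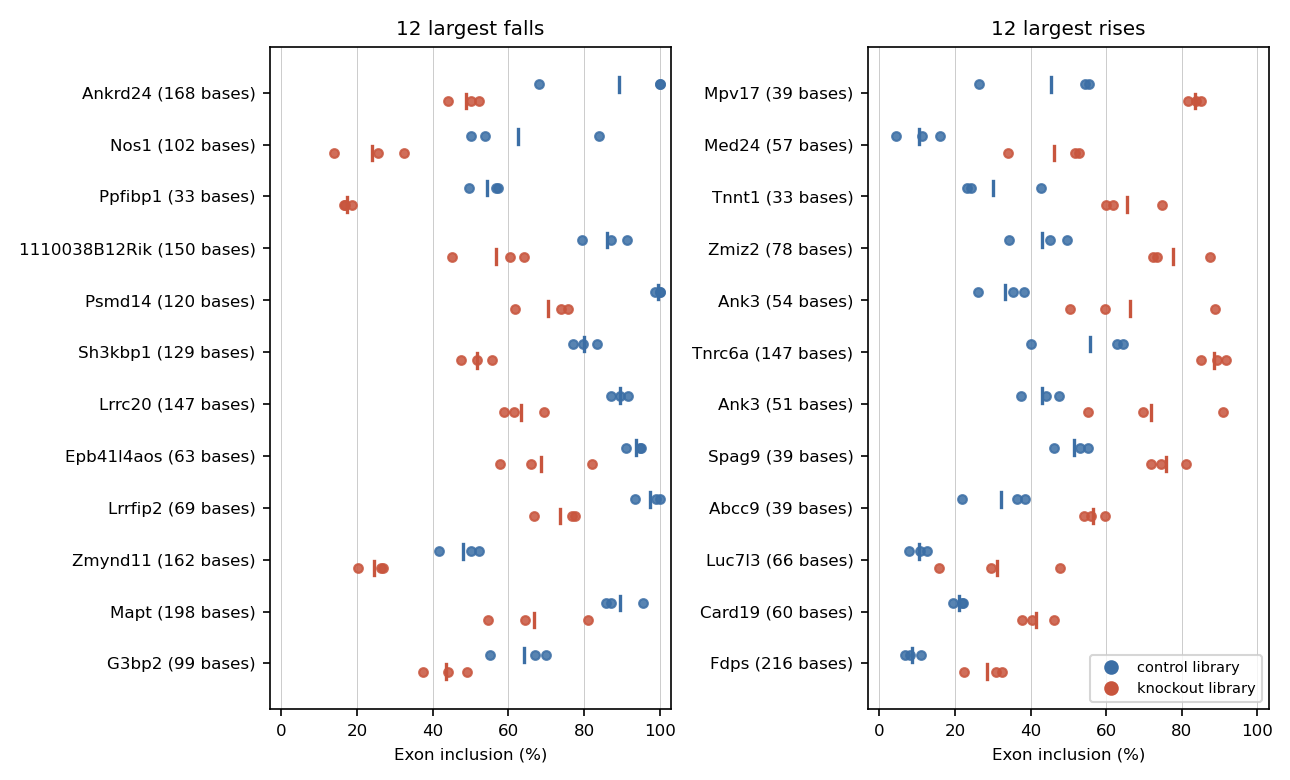
Inclusion (%) of the exons with the 12 largest falls (left) and the 12 largest rises (right), 1 point per library and a vertical tick at each group mean (blue control, red knockout). The control and knockout points of every exon shown are apart, as the choice of these exons required. In Psmd14 the controls sit at or near 100% and the knockouts between 61.6% and 75.7%.

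Rises were led by exons that the control muscle used in part. The 12 largest among called exons with no overlap between groups ran from 38.2 points in Mpv17 to 19.9 points in Fdps. The 57-base exon of Med24, a subunit of the Mediator complex that links transcription factors to RNA polymerase II, was included at 16%, 11.3% and 4.34% in the control and 51.7%, 52.9% and 34.1% in the knockout libraries. It was the minor form in every control library and near an even split in the first and second knockout libraries, and it rose by 35.7 points, with a log2 change of 2.88 ± 0.53 (SE; adjusted p = 7.68e-05). Zmiz2 encodes a coactivator of nuclear receptors. Its 78-base exon was included at 49.6%, 45% and 34.3% in the control and 87.6%, 73.4% and 72.3% in the knockout libraries and rose by 34.8 points (adjusted p = 3.85e-05). Spag9 encodes a scaffold of JNK signalling that binds motor proteins, and its 39-base exon was included at 53.1%, 46.1% and 55.1% in the control and 71.8%, 74.5% and 81.2% in the knockout libraries, a rise of 24.4 points (adjusted p = 0.000229).

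Card19 encodes a mitochondrial protein with a caspase recruitment domain. Its 60-base exon was included at 22%, 21.8% and 19.4% in the control and 37.6%, 40.3% and 46.2% in the knockout libraries, and rose from 21.1% ± 1.48 to 41.4% ± 4.38 (SD, n = 3). With 2592 reads this was the best covered of the 12 rises (adjusted p = 4.71e-06). In Fdps, which encodes farnesyl diphosphate synthase of the isoprenoid and cholesterol pathway, a 216-base exon annotated in an untranslated region was included at 6.85%, 11.1% and 8.16% in the control and 30.9%, 32.3% and 22.4% in the knockout libraries and rose by 19.9 points (adjusted p = 0.00022). Med24, Zmiz2, Spag9, Card19 and Fdps stayed called when any library was left out.

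In Ank3 and Mpv17, forms of an exon that differ by a few bases at one end stood as separate events. Both forms of a gene had the same skipping reads in every library, so their events are not independent. Ank3 encodes ankyrin-G, a linker of membrane proteins to the spectrin skeleton. The longer form was included at 35.3%, 38.1% and 26.1% in the control and 50.4%, 88.9% and 59.7% in the knockout libraries and the shorter at 47.5%, 44% and 37.5% in the control and 55.1%, 90.8% and 69.8% in the knockout libraries. The second knockout library was the highest in both. The calls (adjusted p = 0.00483 for the longer form and adjusted p = 0.00737 for the shorter) were lost without the third control library (adjusted p = 0.076) or the second knockout library (0.164) for the longer form, and without the third control library (adjusted p = 0.0873) or the second knockout library (0.204) for the shorter. In Mpv17, a gene for an inner mitochondrial membrane protein needed to keep mitochondrial DNA, the 39-base form was included at 55.3%, 54.5% and 26.4% in the control and 85.2%, 81.6% and 83.9% in the knockout libraries (adjusted p = 0.00791) and the 33-base form, which starts at the same base and was named after its values were seen, at 83.8%, 80.2% and 66.9% in the control and 95.6%, 93% and 95.2% in the knockout libraries (adjusted p = 0.00625). The third control library was the lowest of both, and the calls were lost without the third control library (adjusted p = 0.0887) for the 39-base form and without the third control library (adjusted p = 0.079) for the 33-base form.

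Of the remaining rises, Tnrc6a encodes a partner of Argonaute in silencing by microRNAs. Its 147-base exon was included at 64.4%, 63% and 40% in the control and 85%, 91.7% and 89.2% in the knockout libraries (adjusted p = 0.031), and the call was lost without the first control library (adjusted p = 0.0538), the third control library (0.188), the second knockout library (0.0706) or the third knockout library (0.0752). Abcc9 encodes the sulfonylurea receptor subunit of ATP-sensitive potassium channels in muscle and vessels. Its 39-base exon was included at 36.3%, 22% and 38.6% in the control and 56%, 54% and 59.6% in the knockout libraries (adjusted p = 0.0325), a call lost without the first control library (adjusted p = 0.0695), the second control library (0.225), the first knockout library (0.0758) or the third knockout library (0.115). Luc7l3 encodes a splicing protein related to Luc7 of the yeast U1 snRNP, and its 66-base exon was included at 10.7%, 7.89% and 12.5% in the control and 15.9%, 29.6% and 47.7% in the knockout libraries (adjusted p = 0.0151). The knockout values of Luc7l3 spread from near the controls to several times their level, and the call was lost without the first control library (adjusted p = 0.0676), the second knockout library (0.0699) or the third knockout library (0.266).

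Sarcomere and Z-disc genes held many of the called exons. Of the 66 genes in this list, 30 had a tested frame-keeping exon, and 25 of their 65 tested exons were called (38.5%, against 5.77% of all 4196 skipped exons tested). Inclusion was higher in 18 of them and lower in 8, with the Neb exon named above in both counts, and the median difference over the list's tested events was 0.09 points, against -0.38 over all events. Neb alone gave 12 of the 25 exons. Without Neb, 13 of 49 exons were called (26.5%), 9 higher and 4 lower. An exon counted as called if any of its events was, and Neb exons stood in many events, some with shared reads. The exon shares are therefore not like for like. By events, 32 of the list's 136 were called, 18 of 71 in Neb and 14 of 65 outside it, against 260 of all 4750. Over the same libraries 4 of 8 markers of regenerating and neonatal fibres were called higher in the knockout (11.3% of all 14619 genes were called in either direction), and their summed scaled reads were 3361 to 5668 in the control and 10259 to 20764 in the knockout libraries; the sum of 8 fibre markers was 2176931 to 2395904 and 2070136 to 2466997. Called lower were 3 of 5 endothelial markers, with sums of 7478 to 8568 in the control and 5166 to 7011 in the knockout libraries, 2 of 4 of smooth muscle and pericytes, with 11893 to 12570 and 8346 to 10197, and 1 of 4 of Schwann cells, with 1080 to 1581 and 792 to 921. None of the markers of satellite cells, macrophages and fibroblasts was called, and the part of any of these cells in the exon changes was not tested.

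Trim54 encodes MuRF3, a ubiquitin ligase that binds microtubules and the Z-disc. Its 96-base exon was included at 96%, 97% and 97.2% in the control and 83.6%, 80.5% and 81.3% in the knockout libraries, with 5956 junction reads behind these values. The exon fell by 14.9 points, a log2 change of -2.69 ± 0.28 (SE; adjusted p = 4.78e-12), and the groups lay far apart relative to their spread. Nrap encodes a nebulin-related anchoring protein of myofibril assembly and of the myotendinous junction, and 3 of its exons fell. The 105-base exon at chr19:56362796-56362900, minus strand was included at 54.9%, 51.1% and 46% in the control and 37.3%, 32.8% and 34.7% in the knockout libraries and fell by 15.7 points (adjusted p = 0.000884). The other 105-base exon was nearly always used, at 99.2%, 99.1% and 99.5% in the control and 97.6%, 97.9% and 96.5% in the knockout libraries (adjusted p = 7.26e-05). A 108-base exon of Nrap, without a skipping read in any control library, was included at 100%, 100% and 100% in the control and 99.2%, 99.5% and 98.6% in the knockout libraries (adjusted p = 0.00747), and its call was lost without the third knockout library (adjusted p = 0.0916).

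Exons rose in Ldb3, Pdlim3 and Limch1. Apart from Trim54, Tnnt1 and the nearly always used 105-base exon of Nrap, the sarcomere exons outside Neb were chosen after their values were seen. The 186-base exon of Ldb3, which encodes the PDZ and LIM domain protein ZASP of the Z-disc, was included at 5.72%, 6.49% and 7.52% in the control and 13.3%, 12.3% and 17.8% in the knockout libraries (adjusted p = 0.00126). In Pdlim3, which encodes the related alpha-actinin-binding protein ALP, a 264-base exon was included at 94.5%, 95.1% and 92.2% in the control and 97.1%, 97% and 96.6% in the knockout libraries (adjusted p = 0.0127), a call lost without the third control library (adjusted p = 0.143). Limch1 encodes an activator of non-muscle myosin. Its 78-base exon was included at 2.52%, 12.3% and 9.08% in the control and 34.1%, 19.9% and 25.4% in the knockout libraries, a rise of 18.5 points (adjusted p = 0.00321), and the call was lost without the first control library (adjusted p = 0.0966). All 3 exons had no overlap between the groups.

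Exons also rose in 2 troponin T genes and in a gene for myosin-binding protein C. Tnnt1 encodes the troponin T of slow fibres, and its 33-base exon was included at 42.9%, 23.1% and 24.3% in the control and 60%, 61.9% and 74.8% in the knockout libraries (adjusted p = 0.0429) on 176 reads. Its call was lost without the second control library (adjusted p = 0.0854), the third control library (0.108), the first knockout library (0.0585) or the second knockout library (0.0764). Tnnt3 encodes the troponin T of fast fibres, and a 39-base exon that the control muscle hardly used was, in its event with the smaller p, included at 0.415%, 0.435% and 0.489% in the control and 0.711%, 1.18% and 1.46% in the knockout libraries (adjusted p = 1.68e-05). The 54-base exon of Mybpc1, the slow form of myosin-binding protein C, was included at 0.222%, 0.121% and 0.364% in the control and 0.593%, 1.01% and 1.47% in the knockout libraries (adjusted p = 7.63e-05). The changes of Tnnt3 and Mybpc1 were under 1 point, with 99563 and 13039 reads behind them. Neither of these events passed in the authors' deposited splicing calls, described below.

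Neb encodes nebulin, the giant ruler protein of the thin filament, whose exons repeat a short actin-binding module. Many of its exons are near-copies of each other, so reads may be assigned to the wrong copy, and the values below are uncertain in that respect. Of its 22 frame-keeping exons, 16 were tested and 12 called, 9 with higher and 4 with lower inclusion in at least 1 event. These 12 are not separate results, because several called events had the same skipping reads in every library. Such events were those of the exons that start at 52040979, 52041376 and 52047844, and those of the exons at 52043695 and 52046367. The clearest change was in adjacent exons of 105 bases. The one nearer the 5′ end of the RNA (chr2:52076024-52076128, minus strand) was included at 0.527%, 0.193% and 0.303% in the control and 1.66%, 3.86% and 8.73% in the knockout libraries, with a log2 change of 3.59 ± 0.35 (SE; adjusted p = 1.23e-12). Its neighbour (chr2:52075283-52075387, minus strand), in the event where skipping joins the first of the pair directly to the exon after the second, was included at 97.8%, 99.1% and 97.9% in the control and 93.3%, 86.3% and 71.4% in the knockout libraries (adjusted p = 7.86e-12). The first was used almost never and the second almost always in control muscle. Skipping in the second event needs a transcript that holds the first exon, so the events are not independent: the reads for skipping the second exon numbered 20, 6 and 13 in the control and 48, 95 and 205 in the knockout libraries, and those for including the first 18, 5 and 7 in the control and 45, 95 and 180 in the knockout libraries.

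Upstream of the repeated 93-base exons, 3 Neb exons rose by more than the SD of either group, though not all by more than the range within a group. The 111-base exon (chr2:52055179-52055289, minus strand) was included at 45.8%, 49.5% and 56.9% in the control and 62.5%, 70.3% and 73.5% in the knockout libraries (adjusted p = 1.74e-05). The 114-base exon (chr2:52053949-52054062, minus strand) was included at 71.8%, 69.6% and 81.1% in the control and 84.6%, 86.8% and 85% in the knockout libraries (adjusted p = 0.000103). The 105-base exon after them (chr2:52051383-52051487, minus strand) was included at 41.4%, 40.2% and 47.6% in the control and 48.6%, 53% and 59.9% in the knockout libraries (adjusted p = 0.0185), and its call was lost without the first control library (adjusted p = 0.132), the second control library (0.134), the second knockout library (0.085) or the third knockout library (0.0923). In all 3 the third control library was the highest control, and none of the knockout libraries fell below it.

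Among the 93-base exons of Neb the groups often overlapped. The exon that starts at 52043695 was included at 32.2%, 40.7% and 61.1% in the control and 62.4%, 76.1% and 59.4% in the knockout libraries in the event with most reads (adjusted p = 0.000272); the third control library lay among the knockout libraries, and the call was lost without the first control library (adjusted p = 0.101). The exon that starts at 52040979 was included at 75.5%, 73.8% and 79% in the control and 79.3%, 85.2% and 84.3% in the knockout libraries (adjusted p = 0.042), and this call was lost without the first control library (adjusted p = 0.163), the second control library (0.217), the second knockout library (0.254) or the third knockout library (0.0785). In other events, chosen after their values were seen, the exon at 52044582 was included at 93.9%, 95.8% and 65.4% in the control and 60.2%, 59% and 72.8% in the knockout libraries (adjusted p = 0.000225), again with the third control library near the knockout libraries, and its call was lost without the first control library (adjusted p = 0.0619). Further events without overlap, also chosen after their values were seen, were called whichever library was left out. In them the exon at 52040979 was included at 78.7%, 71.3% and 81.3% in the control and 83.7%, 89.1% and 90.5% in the knockout libraries (adjusted p = 0.000423). The exon at 52047844 was included at 79%, 70.1% and 76.4% and at 82.3%, 87.6% and 89.2% (adjusted p = 0.000494). Their skipping reads were the same. In their most-read events the 93-base exons other than those at 52043695 and 52040979 were not called. One of them was the exon that starts at 52049489, with an inclusion of 99.8%, 99.96% and 99.95% in the control and 99.9%, 99.9% and 99.9% in the knockout libraries.

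**Figure D3:**
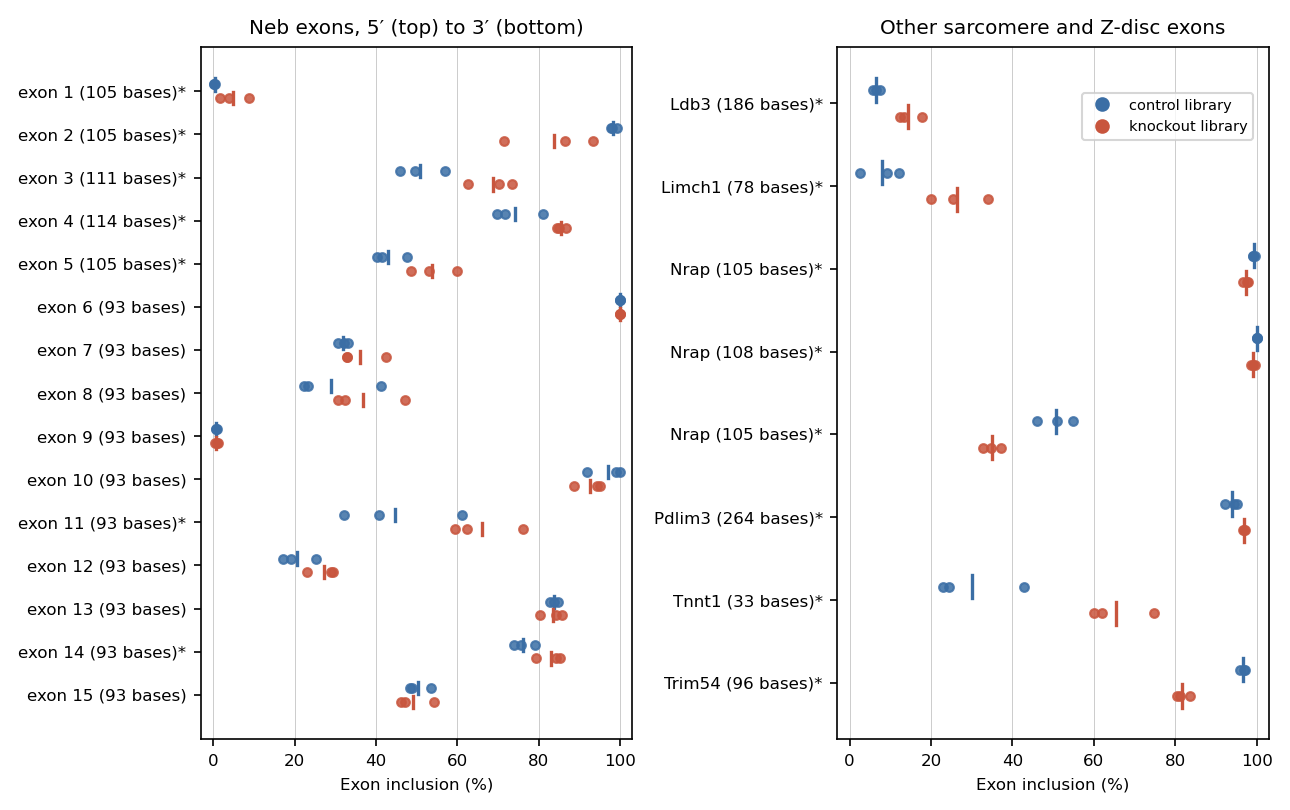
Inclusion (%) per library of Neb exons in the event with most reads or, for the second exon, its called event, in order along the RNA (left), and of called exons of other sarcomere and Z-disc genes (right); ticks are group means and an asterisk marks a called exon (blue control, red knockout). The third control library lies nearest the knockout libraries in the called Neb exons of 111 and 114 bases, and the Trim54 exon stands apart with knockouts between 80.5% and 83.6%.

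In the list of calcium, triad and excitability genes 5 of 44 tested exons were called (11.4%, against 5.77% of all skipped exons), 3 higher and 2 lower (1.98% and 3.84% of all). Bin1 encodes amphiphysin 2, which shapes the transverse tubules, and its 72-base exon was included at 24.3%, 24.9% and 23.3% in the control and 35.4%, 41.8% and 41.2% in the knockout libraries. The knockout values stood well above the controls, with a rise of 15.3 points (adjusted p = 0.000229) on 4195 reads. Pde4dip encodes myomegalin, an anchor of cyclic AMP phosphodiesterase at the Golgi and the sarcomere. Its 153-base exon was included at 91.2%, 86.8% and 89.8% in the control and 93.7%, 94.6% and 95% in the knockout libraries (adjusted p = 0.000904). Of 2 tested events of the Pde4dip exon 1 was called. Asph encodes a set of proteins that includes junctin of the sarcoplasmic reticulum. A 45-base exon of Asph, added after its values were seen, was included at 1.71%, 4.36% and 3.40% in the control and 5.32%, 5.07% and 6.16% in the knockout libraries (adjusted p = 0.0469), and the call was lost without the first control library (adjusted p = 0.374), the third control library (0.0794), the first knockout library (0.0869), the second knockout library (0.0756) or the third knockout library (0.136). The 2 falls were both in Atp2a1, the calcium pump of fast fibres, and both were under 1 point: the 42-base exon, known as the exon that separates the adult from the neonatal form of the pump, was included at 99.9%, 99.9% and 99.9% in the control and 99.9%, 99.8% and 99.7% in the knockout libraries (adjusted p = 0.00361) on 437194 reads. Its call was lost without the first control library (adjusted p = 0.0663) or the third knockout library (0.142), and that of the 105-base exon (adjusted p = 0.0348) without the third control library (adjusted p = 0.0873), the first knockout library (0.0889), the second knockout library (0.197) or the third knockout library (0.11).

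Among membrane skeleton and adhesion genes 2 of 40 exons were called (5.0%, near the 5.77% of all skipped exons). They were both forms of the Ank3 exon described above, which share their skipping reads. The 87-base exon of Add1, which encodes alpha-adducin of the spectrin skeleton, was included at 31.9%, 49.7% and 38.9% in the control and 62.6%, 50.8% and 56.1% in the knockout libraries and did not pass (adjusted p = 0.0517). The list of microtubules, motors and cytoskeleton had 5 of 43 exons called (11.6%, against 5.77%), 3 higher and 2 lower. Kif13a and Kif1c encode kinesin motors that carry vesicles. The 72-base exon of Kif13a was included at 2.73%, 7.39% and 1.78% in the control and 15.1%, 13% and 14.4% in the knockout libraries (adjusted p = 0.000836), and the 120-base exon of Kif1c, in an untranslated region, at 36.8%, 36% and 38% in the control and 51.2%, 51% and 52% in the knockout libraries (adjusted p = 0.00425). Clip1 encodes a protein of growing microtubule ends. Its 105-base exon was included at 28.8%, 29.7% and 19.1% in the control and 44.6%, 46.1% and 41.4% in the knockout libraries (adjusted p = 0.012), and the call was lost without the third control library (adjusted p = 0.109) or the second knockout library (0.066). Of 2 tested events of the Clip1 exon 1 was called. In each of these 3 exons every knockout library lay above every control library. The falls were the Mapt exon given above and the 87-base exon of Ktn1, which encodes the kinesin-binding protein kinectin and was added after its values were seen. The Ktn1 exon was included at 66.2%, 64.9% and 66.6% in the control and 47.8%, 53.8% and 55.7% in the knockout libraries (adjusted p = 0.0435), and its call was lost without the first control library (adjusted p = 0.123), the second control library (0.0888), the third control library (0.108), the first knockout library (0.204) or the second knockout library (0.0918).

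The list of vesicle and membrane genes, which does not hold Sh3kbp1 or Yipf7, had 2 of 39 exons called (5.13%, near the 5.77% of all skipped exons), both higher. Arfgap2 encodes a GTPase-activating protein of COPI vesicle coats. Its 42-base exon was included at 74.9%, 82.8% and 76.5% in the control and 97.6%, 96% and 89% in the knockout libraries and rose by 16.2 points (adjusted p = 0.000147). Golga2 encodes the Golgi matrix protein GM130, and its 81-base exon was included at 73.1%, 73% and 81.8% in the control and 89.7%, 94.3% and 91.9% in the knockout libraries (adjusted p = 0.0429), a call lost without the first control library (adjusted p = 0.159), the second control library (0.15), the second knockout library (0.156) or the third knockout library (0.0699). The 39-base exon of Sec31a, a COPII coat subunit, was included at 33%, 27.2% and 31.6% in the control and 44.9%, 55.8% and 46.1% in the knockout libraries and did not pass (adjusted p = 0.132).

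The list of splicing and RNA-binding genes, which does not hold Ybx1 or Tnrc6a, had 4 of 58 exons called (6.9%), 3 higher and 1 lower, close to the share of all skipped exons. Pcbp2 encodes a poly(C)-binding protein, and its 39-base exon was included at 91.2%, 95.3% and 90.8% in the control and 98.5%, 98.7% and 97.1% in the knockout libraries (adjusted p = 0.000494). The rise of Luc7l3 is given above. Snrnp70 encodes the U1 snRNP protein of that name. Its 60-base exon, annotated in noncoding transcripts, was included at 31.6%, 44.7% and 33.8% in the control and 59.9%, 59.7% and 44.2% in the knockout libraries (adjusted p = 0.0466), with the second control library overlapping the third knockout library, and the call was lost without the first control library (adjusted p = 0.202), the third control library (0.159), the first knockout library (0.178) or the second knockout library (0.206). The fall was an 81-base exon of Fxr1, which encodes a muscle relative of the fragile X protein, included at 96.8%, 97.2% and 99.2% in the control and 93.3%, 90.7% and 91.8% in the knockout libraries in its called event on 2061 reads (adjusted p = 0.00773), which was added after its values were seen. In its event with most reads, 3785, the same exon was included at 99.7%, 100% and 97.9% in the control and 98.9%, 99% and 98.5% in the knockout libraries, with overlapping groups and no call (adjusted p = 0.408). The call in the first event was lost without the third control library (adjusted p = 0.0679), the second knockout library (0.0723) or the third knockout library (0.0508). The 204-base exon of Srrm1, a serine/arginine-rich splicing coactivator, was included at 100%, 100% and 100% in the control and 87.1%, 90.5% and 90.3% in the knockout libraries and did not pass (adjusted p = 0.0751). In Acin1 itself a 120-base exon was included at 44%, 10% and 26.3% in the control and 61.9%, 66.7% and 39.1% in the knockout libraries on 120 reads in all, with overlapping groups and no call (adjusted p = 0.133). The scaled reads of the whole Acin1 gene were 1513, 1559 and 1413 in control and 1196, 1196 and 1195 in knockout libraries, a log2 change of -0.32 (adjusted p = 0.0266), which counts reads from all cells of the muscle.

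The list of transcription and chromatin genes, which does not hold Med24 or Zmiz2, had 1 of 34 exons called (2.94%), the fall of Zmynd11 given above. The list of signalling genes, which does not hold Spag9, had 2 of 53 called (3.77%), both lower: Lrrfip2, given above, and Wnk1, a kinase that regulates chloride cotransporters. The 93-base exon of Wnk1 was included at 38.8%, 51.9% and 37.4% in the control and 31.1%, 29.1% and 23.6% in the knockout libraries (adjusted p = 0.0355), and the call was lost without the first control library (adjusted p = 0.0688), the second control library (0.291), the second knockout library (0.0723) or the third knockout library (0.158). Of 2 tested events of this Wnk1 exon 1 was called. The list of mitochondrial and metabolic genes, which does not hold Nfu1, Mpv17, Card19 or Fdps, had 2 of 37 called (5.41%), 1 in each direction. The lower one was the 159-base exon of Mff, which encodes the receptor that recruits the fission protein DRP1 to mitochondria. The Mff exon was included at 79.3%, 88.5% and 79.5% in the control and 71.7%, 68% and 66.9% in the knockout libraries and fell by 13.6 points (adjusted p = 0.00613), a call lost without the second control library (adjusted p = 0.138). Of 2 tested events of the Mff exon 1 was called. The higher one was the 117-base exon of Pkm, which encodes muscle pyruvate kinase, included at 42.9%, 35.9% and 33.3% in the control and 60%, 53.3% and 62.2% in the knockout libraries in its called event on 524 reads (adjusted p = 0.0175), which was added after its values were seen. In its event with most reads, 47150, the same exon was hardly used, at 0.358%, 0.284% and 0.248% in the control and 0.472%, 0.468% and 0.368% in the knockout libraries, and was not called (adjusted p = 0.202). The call in the first event was lost without the second control library (adjusted p = 0.066), the third control library (0.0818), the first knockout library (0.0584) or the third knockout library (0.0699). With so few calls the shares of these 3 lists were near the 5.77% of all skipped exons, and nothing is read from them.

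**Figure D4:**
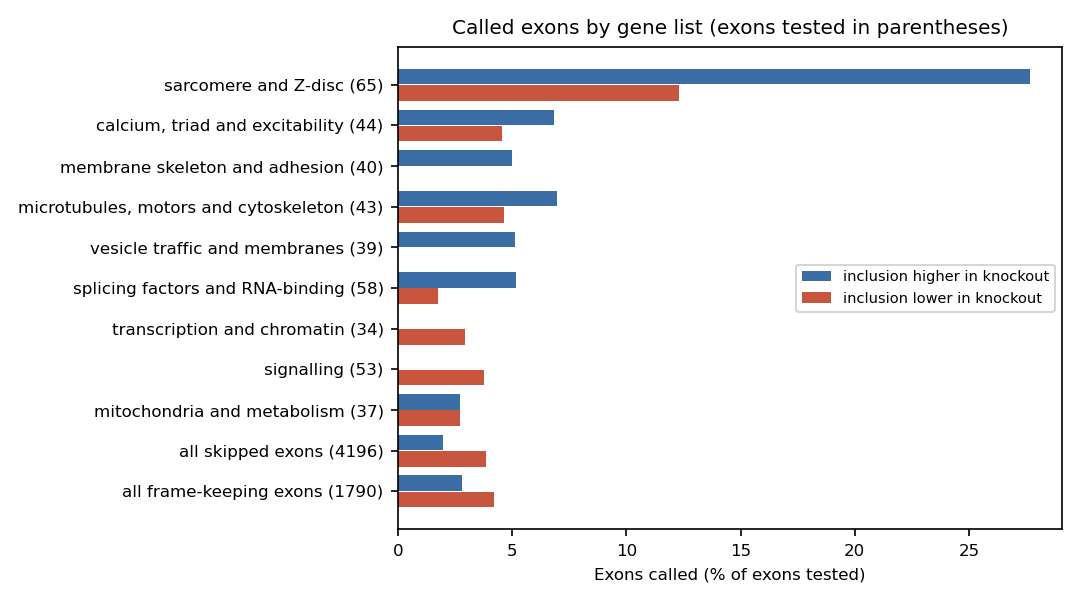
Share of tested frame-keeping exons (%) called with higher (blue) or lower (red) inclusion in the knockout, for each of 9 gene lists, all skipped exons and all frame-keeping exons, with the number of exons tested in parentheses. The sarcomere and Z-disc list has the longest bars, 18 and 8 of 65 exons, of which Neb gives 12 exons.

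The called exons resembled the tested ones in most features that the length rule did not use. Their median length was 99 bases against 102 for all 1790 tested, with 79.5 for exons that rose and 105 for exons that fell. A matching GENCODE M21 exon was found for 1618 of the tested and 99 of the called exons. Of those, 75.2% and 73.7% lay wholly in coding sequence, against 52.9% of tested frame-shifting exons of the same length range. Among matched exons that rose 81.6% were coding, and among those that fell 68.9%. The rule therefore also admits exons that keep no frame: 166 tested and 10 called exons held a stop codon in all 3 frames, none of them annotated as coding. A transcript that skips the exon was annotated for 67.7% of tested and 66.1% of called exons. The median GC content was 51.0% and 51.1%, and the last base was G in 77.9% and 81.8% of matched exons. The intron after the exon had a median of 932 bases for exons that rose and 2140 for those that fell, against 1845.5 for all tested. These are descriptions, and differences between the sets were not tested.

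Few events lay at the length limits, and a step in the counts could not have been seen. Of 95 events with 33-base exons 28 were tested and 3 called, and of 75 events with 30-base exons, just outside, 24 were tested and 1 called. Of 89 events with 36-base exons 27 were tested and 0 called. Of 11 events at the longest length inside the limit and 4 with 300-base exons, just outside, 1 each was tested and 0 were called.

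All 102 host genes of called exons were listed in the gene table and 11 were called (10.8%), 9 higher and 2 lower, against 11.3% of 14619 genes and 15.5% of 1295 listed genes with a tested frame-keeping exon (107 higher and 94 lower). When control replicate 1, 2 or 3 of the gene table was dropped the 11 became 3, 2 and 3, and dropping knockout replicate 7 left 4. The higher ones included Card19, with a log2 change of 0.56 ± 0.08 (SE; adjusted p = 0.00649), Ppfibp1 with 0.54 ± 0.12 (adjusted p = 0.0269) and Fdps with 0.49 ± 0.10 (adjusted p = 0.0237). The lower ones were Mapt, with -0.46 ± 0.08 (adjusted p = 0.0126), and Sema6c with -0.55 ± 0.12 (adjusted p = 0.0269). Sema6c encodes a transmembrane semaphorin, and its 96-base exon, looked at after these values were seen, rose from 63.6% ± 4.25 to 80.1% ± 5.86 (SD, n = 3) (adjusted p = 0.00216). Psmd14, Trim54 and Nos1, with some of the clearest falls, were not among the 11.

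**Figure D5:**
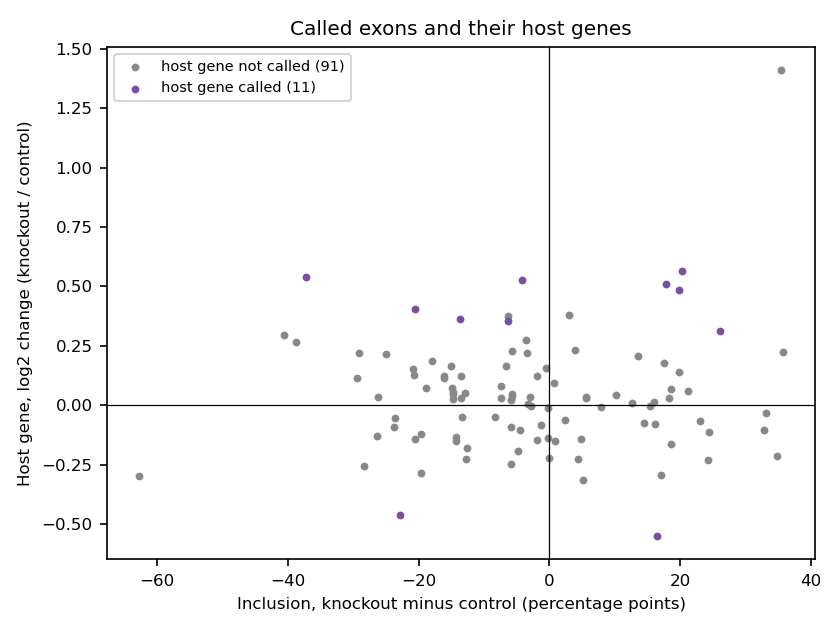
Log2 change of the host gene (vertical axis) against the difference in inclusion, knockout minus control in percentage points (horizontal axis), for the called exon with the smallest p in each of 102 genes. The 11 genes called themselves (purple) lie on both sides of zero inclusion change, 9 above and 2 below zero on the vertical axis.

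Frame-shifting exons of the same length range were compared to show where frame-keeping exons differ. Of 2324 frame-shifting events tested 96 were called (4.13%), 21 higher and 75 lower, against 57 and 79 of 2044 frame-keeping events; this difference between the classes was not tested. Over the tested frame-keeping events the median inclusion was 86.4%, 85.9% and 86.4% in the control and 85.7%, 84.3% and 85% in the knockout libraries. All 3 knockout values lay below all 3 control values, a difference of -1.25 points, and the exact two-sided permutation test gave p = 0.1, the smallest value that 3 against 3 libraries allow. With a minimum mean of 10 reads the difference was -0.773 points (exact p = 0.4), and with one event per exon -1.33 (exact p = 0.2), so the groups then overlapped. The median of frame-shifting events was 90.9% in control and 88.2% in knockout (exact p = 0.1). The gap between the classes narrowed by 1.46 points (exact p = 0.1). The share of skipping, pooled over the tested frame-keeping events after division by effective length, was 33.2% ± 0.23 in control and 32.6% ± 0.35 in knockout (SD, n = 3, exact p = 0.1). With one event per exon the sign of this difference turned, to 0.127 points, so no direction is read from it.

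The authors' deposited table of rMATS, a splicing caller that models junction counts, lists 308 frame-keeping events with an FDR under 0.05 (3.63%, against 3.16% of all skipped-exon events). Of the 136 events called above 121 are among them, and 95 of the 308 did not meet the read minimums used here. For the exon of Bin1 the authors' deposited table gives an rMATS FDR of 2.45e-09 and for that of Nos1 0.00774. A second deposited table, from the caller CASH and built from the same libraries, held 64 of the 105 exons called in their event with most reads, with at least 20 reads in both group columns, and the sign of the change was the same in 63. In the authors' deposited table of CASH 5 of these had an FDR under 0.05. The groups were assigned by matching reads with CASH, so the agreement in sign adds no support.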

How the data were processed

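RNA of tibialis anterior muscle was sequenced from 3 control and 3 knockout libraries, grouped by genotype label. Per the labels, libraries came from a directional kit. GRCm39 (mm39) is the build in the submitters' processing notes, which also list STAR 2.7.9a, RSEM 1.3.3, Trimmomatic 0.39 and FastQC 12.0, without roles. Per the file headers, the deposited skipped-exon table holds rMATS junction counts, 3 comma-joined values per group, with a p-value and FDR for each event; which library each value belongs to is not given in the sources used here, so libraries are named by their order in the cell. The groups are headed sample 1 and sample 2. Sample 1 was read as control because the CASH table, whose deposited columns of junction reads name the groups, had control skipping reads equal to the summed sample 1 values in 177 of 811 exons and to those of sample 2 in 16 of 881. The deposited gene table holds log2 values to which the authors had added 4 scaled reads.

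The log2 ratio of inclusion to skipping reads, with 0.5 added and each divided by its effective length, was tested for all events with limma 3.58.1 in R 4.3.3 (two-sided, with a trend on read number and 73.1 prior degrees of freedom; Benjamini-Hochberg adjustment over 4750 events, threshold 0.05). Gene log2 values were tested with limma likewise over 14619 genes. The fit was tested on simulated data. Named exons were the 12 largest rises and falls with no overlap and at least 10 points, up to 4 exons per gene list by p, exons of Acin1 and of the gene with most called exons; others are said to have been chosen later, and some results are not reported here. Members and lists were chosen with earlier results of these data known. Leaving out libraries, other minimums, added counts, scales and models were tried. Intervals for counting error are not given because the spread between libraries was used.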

Additional observations from a re-analysis of the deposited data

How the results depend on the processing

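The number of called frame-keeping events was 136. It was 66 (31 higher, 35 lower) with 0.1 in place of 0.5 added to each count, 10 (1 and 9) on the percent scale, 14 (2 and 12) without a trend on read number and 308 (122 and 186) by the deposited rMATS FDR. For all skipped exons, with 260 called, these settings gave 134, 24, 32 and 664, and for frame-shifting exons, with 96 called, 54, 11, 16 and 283. Leaving out 1 library gave 86 to 121 frame-keeping calls (38 to 55 higher, 47 to 71 lower), 178 to 234 for all and 73 to 90 for frame-shifting exons; the lowest, 86, was without the second knockout library. The share of higher calls was 41.9%, and 10% and 14.3% on the percent scale and without a trend. The cause was not tested. Host genes called numbered 11, 2 without a trend, and 2 to 12 when 1 library was left out.

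The difference in median inclusion was -1.47 to -0.85 points and that in pooled skipping -1.05 to -0.252 when 1 library was left out. The former was -1.49 to -0.772 under other minimums, one event per exon or no division by length; with one event per exon the latter reversed to 0.127. Of 89 called events of named exons, 42 stayed called without any single library. Signs turned only for 3 uncalled Neb events: with 1 library left out, log2 changes ran from -0.204 to 0.036 for the exon at 52040549, from -0.142 to 0.134 for that at 52041376 and from -0.308 to 0.495 for that at 52046367, which also had 0.07 points on the percent scale and by rMATS and a log2 change of 0.06 in a quasi-binomial model. No paired analysis was possible because the groups share no replicate numbers. Junction reads are few for many exons: the 3 minimums on reads together left 2044 of 8476 events, and the rest were not tested here.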

Other observations

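Some exons outside the rule for named exons were looked at after their values were seen, and are given as values. The largest called difference was in an event of a 195-base exon of Dusp13, a gene that encodes dual-specificity phosphatases of muscle and testis, with an inclusion of 100%, 93.5% and 100% in the control and 27.3%, 42.9% and 35.3% in the knockout libraries (adjusted p = 4.11e-05) on 156 reads. The same exon in its most-read event was included at 97.8%, 97.5% and 96.4% in the control and 98.6%, 98.4% and 97.7% in the knockout libraries and was not called (adjusted p = 0.718). Mlip, a gene for a lamin-interacting protein of muscle, had a 129-base exon included at 100%, 100% and 100% in the control and 84.4%, 83.6% and 83% in the knockout libraries (adjusted p = 0.0162), a call lost without the first knockout library (adjusted p = 0.0529), the second knockout library (0.0699) or the third knockout library (0.0752), and a 75-base exon included at 23.3%, 12.6% and 11.3% in the control and 31.7%, 30.7% and 40.7% in the knockout libraries (adjusted p = 0.00402), a call lost without the third control library (adjusted p = 0.0549). The Mlip events are not independent: reads that include the 129-base exon and reads that skip the 75-base exon were nearly the same in number.

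The 276-base exon of Tra2b, known as a poison exon through which the splicing factor limits its own level, was included at 45.7%, 48% and 34.4% in the control and 22.8%, 27% and 26.8% in the knockout libraries and was not called (adjusted p = 0.133). Sh3bgr, a gene strongly expressed in striated muscle, had 3 called exons, of which the 186-base exon was included at 92.6%, 91.7% and 92.6% in the control and 85.8%, 87.3% and 86.9% in the knockout libraries (adjusted p = 0.00234). Of 2 tested events of the 186-base exon 1 was called. Called events of the other Sh3bgr exons, of 81 and 72 bases, had the same skipping reads.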
